A study of Homo sapiens with 4 samples.

Results

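Lung lineage genes were examined in PC9 cells, an *EGFR*-mutant human lung adenocarcinoma line, and in PC9OR cells, which were derived from PC9 and are resistant to osimertinib. The 9 genes were chosen by name as adenocarcinoma (*NKX2-1*, *FOXA1*, *FOXA2*, *GATA6*, *SFTPB*, *NAPSA*), squamous (*SOX2*, *TP63*) and neuroendocrine (*INSM1*) genes, and were taken by Entrez gene number from the 16813 genes listed in at least 1 library. Each line was sequenced as 2 biological replicates, 4 libraries in all. The labels give both lines the genotype WT and describe the phenotype as control for PC9 and osimertinib resistant for PC9OR. Both were kept in RPMI 1640 with fetal bovine serum, and no drug treatment at harvest is given. A single resistant line was sequenced, and whether it is a clone or a mixed population is not given in the sources used here. What goes with resistance and what separates the cultures for other reasons cannot be told apart here.

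The lineage of a lung epithelial cell is held by a small set of transcription factors. *NKX2-1* (also called TTF-1) directs alveolar and bronchiolar identity and, together with the forkhead factors *FOXA1* and *FOXA2* and the zinc finger factor *GATA6*, activates surfactant genes such as *SFTPB*. *NKX2-1* and the protease *NAPSA* are the markers by which pathologists recognise lung adenocarcinoma, p63 (*TP63*) marks squamous carcinoma, and *INSM1* marks neuroendocrine tumours. *SOX2* acts in airway basal and squamous cells. Change of histology towards small cell or squamous carcinoma is a known clinical route of resistance to EGFR inhibitors.

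The 4 libraries held between 23201307 and 32203998 expected counts (estimated reads per gene, not normalized). Each library lists only genes with a value above 0, so a gene that was not listed was taken as 0 counts. A gene was called expressed in a line at 1 FPKM or more (fragments scaled by transcript length and library depth) in both libraries, and low when under that value but with at least 3 expected counts in both. By that rule 61.3% of the listed genes were expressed in PC9 and 60.2% in PC9OR cells. The label of the cells as lung adenocarcinoma was checked against markers. All 10 epithelial genes of a written list, such as *EPCAM* and *KRT8*, were expressed in both lines, with summed FPKM between 2874 and 3310 in PC9 and between 5837 and 6102 in PC9OR. The defining alveolar genes were absent or near 0, as described below. The 9 fibroblast markers summed to between 0.24 and 0.61 FPKM. The 9 immune markers summed to 5.77 and 7.39 FPKM in PC9 and to 2.76 and 2.97 in PC9OR, most of it from the lysosomal gene *CD68*, with *PTPRC* (CD45) at 1 count in a single library. The 7 endothelial markers summed to 7.39 and 11.4 FPKM in PC9 and to 1.40 and 1.73 in PC9OR, and *CDH5* and *ESAM* gave most of it, while *KDR* was not listed and *VWF* had 4 counts in a single library. The part of these markers in the results was not tested. Across the 13148 genes tested, the log2 fold change between the lines had a rank correlation of -0.34 with transcript length, and the difference between the PC9 replicates had one of -0.38.

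To show how the regulatory sequences of these genes differ, the 250 bases upstream of 4 starts are printed, with each CpG in capitals. They were chosen as the factor with the highest level (*FOXA1*) and the adenocarcinoma factor that was called lower (*GATA6*). The other choices were the master regulator that was detected only in PC9OR cells (*NKX2-1*) and the surfactant gene that was not listed in any library (*SFTPB*). The sequences are from RefSeq on GRCh38.p14, at chr14:37595250-37595499 (minus strand), chr18:22169339-22169588 (plus), chr14:36519557-36519806 (minus, the downstream of the 2 *NKX2-1* starts) and chr2:85668742-85668991 (minus, the upstream of the 2 *SFTPB* starts).
*FOXA1*: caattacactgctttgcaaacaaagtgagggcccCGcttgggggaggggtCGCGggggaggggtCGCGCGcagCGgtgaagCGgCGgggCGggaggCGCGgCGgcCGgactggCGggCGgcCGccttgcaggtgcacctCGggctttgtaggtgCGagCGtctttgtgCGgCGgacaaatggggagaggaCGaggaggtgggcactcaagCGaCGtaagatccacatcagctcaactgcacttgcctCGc
*GATA6*: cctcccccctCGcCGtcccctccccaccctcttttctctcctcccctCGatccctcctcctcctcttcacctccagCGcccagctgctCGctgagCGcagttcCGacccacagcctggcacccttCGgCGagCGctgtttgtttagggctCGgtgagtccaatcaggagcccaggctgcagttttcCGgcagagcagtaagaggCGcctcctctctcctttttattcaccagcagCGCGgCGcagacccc
*NKX2-1*: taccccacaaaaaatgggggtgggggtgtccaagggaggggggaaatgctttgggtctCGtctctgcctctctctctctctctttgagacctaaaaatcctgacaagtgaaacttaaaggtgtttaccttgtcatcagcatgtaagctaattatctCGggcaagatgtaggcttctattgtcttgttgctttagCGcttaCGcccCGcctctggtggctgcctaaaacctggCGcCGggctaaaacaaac
*SFTPB*: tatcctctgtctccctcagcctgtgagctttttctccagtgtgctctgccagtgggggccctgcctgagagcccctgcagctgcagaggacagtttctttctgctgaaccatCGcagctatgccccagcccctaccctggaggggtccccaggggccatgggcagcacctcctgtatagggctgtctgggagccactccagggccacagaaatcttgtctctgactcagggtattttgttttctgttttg
The *FOXA1* window held 26 CpGs, more than 80.4% of all 35116 windows in the table, whose median was 11. The *GATA6* window held 16, and the printed *NKX2-1* window held 7. The printed *SFTPB* window held 1 CpG, more than 6.06% of all windows, and the other *SFTPB* window held 3. Of the members, 7 were matched to 10 windows, and the remaining ones held 20 CpGs for *SOX2*, 18 for the other *NKX2-1* start, 10 and 3 for *NAPSA*, and 6 for *TP63*. The table was also searched on both strands for the forkhead motif TGTTTAC and for its variants, namely TGTTTGC, as well as TATTTAC and, last, also TATTTGC. A match was found in 4 of the 10 member windows (both of *NKX2-1*, and those of *FOXA1* and *TP63*), against 10.6% of all windows. For the NKX2-1 motifs, CTCAAG or the overlapping form given by CAAGTG, searched on both strands, a match was found in 4 of the 10 windows, against 18.3% of all windows. These matches describe letters and not binding, and a window without one may hold other forms of either motif, which were not searched.

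*FOXA1* was the only one of the 9 genes that was expressed in both lines. *GATA6* was expressed in PC9 cells and fell to a low level in PC9OR cells. *FOXA2* and *NKX2-1* were not listed in either PC9 library and were detected at low levels in both PC9OR libraries. *SOX2* rose from the detection floor, *TP63* fell from a low level, *NAPSA* was near the detection floor, and *SFTPB* and *INSM1* were not listed in any library.

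**Figure D1:**
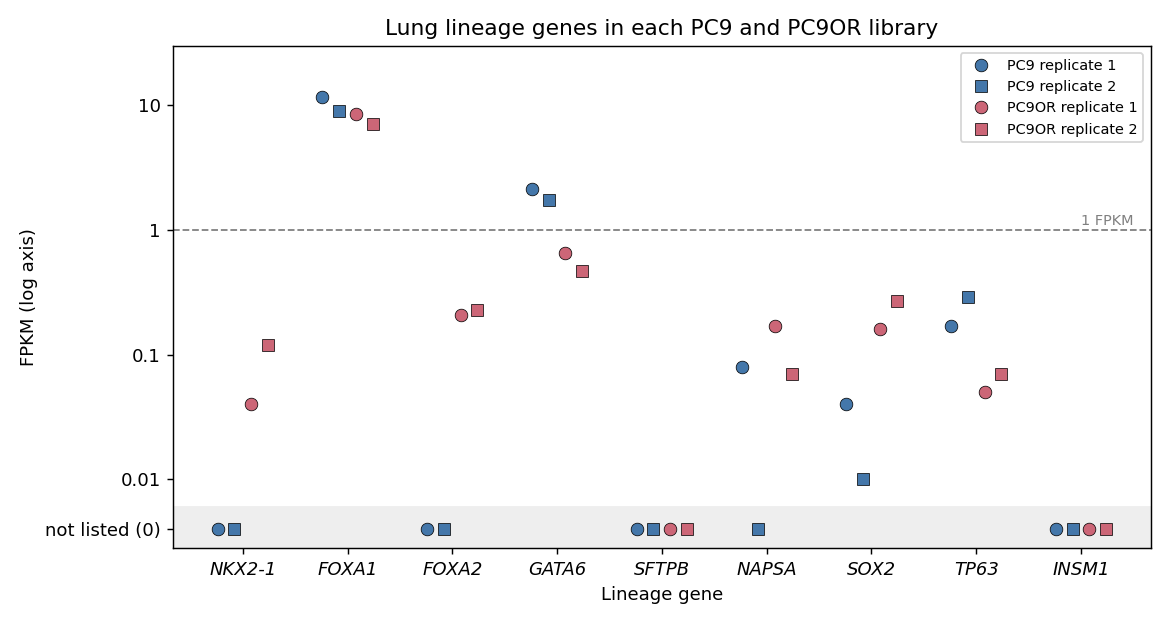
FPKM of the 9 lineage genes in each library on a log axis, with circles for replicate 1 and squares for replicate 2 of PC9 (blue) and PC9OR (red). The grey band holds genes not listed in a library, and the dashed line is the limit of 1 FPKM. *FOXA1* lay above the line in all 4 libraries, *GATA6* only in both PC9 libraries, and the other genes lay under it throughout.

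Among the adenocarcinoma factors, *FOXA1* (Entrez gene 3169, chromosome 14 of GRCh37 from 38058757 to 38065264, minus strand) is a pioneer factor that opens chromatin in endodermal epithelia. Its level was 11.61 and 9.08 FPKM in PC9 replicates 1 and 2 and 8.60 and 7.11 FPKM in PC9OR replicates 1 and 2. These levels were above those of between 60.3% and 68.6% of the genes listed in a library. Both PC9OR values were below both PC9 values, which was so for 38.2% of the 13148 genes tested. The log2 fold change in CPM (counts normalized to library size) was -0.36 (standard error 0.166), which did not pass edgeR's quasi-likelihood test (adjusted p = 0.138). Offsets for length and GC content brought it to -0.13. With PC9 replicate 2 left out it was -0.53 and passed the same test (adjusted p = 0.0306). The 5' end of *FOXA1* overlaps *TTC6* on the opposite strand, which had between 105 and 139 expected counts against between 1097 and 1305 for *FOXA1*.

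*GATA6* (Entrez gene 2627, chromosome 18 from 19749550 to 19782491, plus strand) acts in the maturation of the distal lung epithelium. It had 2.13 and 1.73 FPKM in the PC9 libraries and 0.65 and 0.47 FPKM in the PC9OR libraries, from 258.93, 265.17, 111.18 and 80.81 expected counts. The groups did not overlap, as for 38.2% of all genes tested in this direction. The level crossed the limit of 1 FPKM between the lines, as it did for 3.35% of the listed genes in this direction. The mean was 1.93 ± 0.283 FPKM (SD, n = 2) in PC9 and 0.56 ± 0.127 FPKM (SD, n = 2) in PC9OR. In CPM the log2 fold change was -1.75 (standard error 0.269), or 3.37-fold lower, and it passed edgeR's quasi-likelihood test (adjusted p = 0.0116). For comparison, 20.8% of all genes tested were called lower in PC9OR cells at an adjusted p under 0.05, and 11.6% were also more than 2-fold lower. The decrease was called in all 15 fits with other processing or with a library left out, with log2 fold changes from -1.99 to -0.91 and adjusted p from 1.22e-05 to 0.0450. *FOXA1* was 5.36 times the level of *GATA6* in PC9 cells and 14.03 times in PC9OR cells on the FPKM scale. The antisense gene *GATA6-AS1* had 5.23 expected counts in PC9 replicate 2 and was not listed in the other libraries.

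*FOXA2* (Entrez gene 3170, chromosome 20 from 22561636 to 22566093, minus strand) is the paralogue that acts beside *FOXA1* in the alveolar epithelium. It was not listed in either PC9 library and had 22 and 25 expected counts in the PC9OR libraries, equal to 0.21 and 0.23 FPKM. The replicates of PC9OR cells were close to each other, and the level was above those of 19.3% and 19.6% of the genes listed. Against a floor of 3 counts over both PC9 libraries, the level of *FOXA2* in PC9OR was 12.8-fold higher, a value that takes the PC9OR counts as exact. The gene passed edgeR's quasi-likelihood test (adjusted p = 0.0148). It entered the test only through the PC9OR libraries, where it was high, so the call adds no support beyond these counts. For comparison, 15.6% of all genes tested were called higher in PC9OR cells at an adjusted p under 0.05, and 6.13% were also more than 2-fold higher. *FOXA1* remained 35.7 times the level of *FOXA2* in PC9OR cells on the FPKM scale.

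*NKX2-1* (Entrez gene 7080, chromosome 14 from 36985597 to 36990354, minus strand) was not listed in either PC9 library. It had 4 and 12 expected counts in the PC9OR libraries, equal to 0.04 and 0.12 FPKM. The lines did not overlap, as for 39.6% of all genes tested in this direction. The PC9OR replicates differed from each other on few counts, and *NKX2-1* was too low to be tested. Against the floor of 3 counts over both PC9 libraries its level in PC9OR was 4.36-fold higher. This value takes the PC9OR counts as exact, so it leaves out their counting error and the spread between replicates. The level of *FOXA1* in PC9OR cells was 98.2 times that of *NKX2-1* on the FPKM scale. Of the 16813 listed genes, 136 (0.809%) had 0 counts in both PC9 libraries and at least 3 in both PC9OR libraries, as *FOXA2* and *NKX2-1* did, and 130 (0.773%) had the reverse. *NKX2-1-AS1*, which overlaps *NKX2-1* on the opposite strand, had 1 count in PC9OR replicate 2, and *SFTA3*, which overlaps it on the same strand, was not listed.

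The marker genes that these factors activate were at or near 0. *SFTPB* (chromosome 2 from 85884437 to 85895864, minus strand), which encodes surfactant protein B, was not listed in any library, and a count of 0 allows up to between 0.0936 and 0.128 CPM (3 counts in a library). *NAPSA* (Entrez gene 9476, chromosome 19 from 50861729 to 50869087, minus strand) encodes the aspartic protease napsin A, which processes surfactant protein B. It had 4 expected counts in PC9 replicate 1, was not listed in PC9 replicate 2, and had 11 and 5 in the PC9OR libraries, at most 0.17 FPKM. The lines overlapped in CPM, and the gene was too low to be tested. The ratio of its pooled counts, PC9OR over PC9, was 3.27 with an exact 95% interval from 1.05 to 13.4, which covers counting error only and not the spread between replicates. *NAPSA* lies within *NR1H2* on the opposite strand, which had between 1270 and 2218 expected counts, so a few reads of the one may be counted for the other unless strand was used in counting.

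Of the squamous factors, *SOX2* (Entrez gene 6657, chromosome 3 from 181429713 to 181432224, plus strand) had 3 and 1 expected counts in the PC9 libraries and 18 and 31 in the PC9OR libraries. This was 0.04 and 0.01 FPKM against 0.16 and 0.27 FPKM, so it was under 1 FPKM in every library. Both PC9OR values were above both PC9 values, which was so for 39.6% of all genes tested. The pooled counts, 49 against 4, gave a ratio of 10.0 with an exact 95% interval for counting error from 3.67 to 38.2. The fitted log2 fold change was 3.23 (standard error 0.778). It passed edgeR's quasi-likelihood test (adjusted p = 0.0315), a call in this direction that 15.6% of all genes tested also had. *SOX2* entered the test only through the PC9OR libraries, where it was high, so this call adds no support beyond the counts. The call was lost with an adjusted p of 0.0642 without PC9 replicate 2, 0.0876 without PC9OR replicate 1 and 0.207 without PC9OR replicate 2 (edgeR's quasi-likelihood test). *SOX2-OT*, which spans *SOX2* on the same strand, was not listed in any library.

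*TP63* (Entrez gene 8626, chromosome 3 from 189349178 to 189615065, plus strand), which encodes the p53-family factor of basal and squamous cells, moved the other way. It had 23.95 and 57.03 expected counts in the PC9 libraries and 10.08 and 15.00 in the PC9OR libraries, equal to 0.17, 0.29, 0.05 and 0.07 FPKM. The groups did not overlap, as for 38.2% of all genes tested in this direction, although the PC9 replicates differed more from each other than the PC9OR replicates did. The fitted log2 fold change was -1.94 (standard error 0.543), or 3.83-fold lower. It passed edgeR's quasi-likelihood test (adjusted p = 0.0454), a call in this direction that 20.8% of all genes tested also had. *TP63* would not have passed the filter on low counts without the PC9 libraries, where it was high, so this call adds no support beyond the counts. The call was lost with an adjusted p of 0.115 without PC9 replicate 2, 0.253 without PC9OR replicate 1 and 0.157 without PC9OR replicate 2, and also with DESeq2's Wald test (0.0603) and with offsets for transcript length (0.0568, edgeR's quasi-likelihood test). The gene is counted over 13 RefSeq transcripts, and its mean transcript length, weighted by isoform use, was 4424 and 4856 bases in the PC9 libraries and 4585 and 4815 bases in the PC9OR libraries. The values do not separate the long from the N-terminally truncated isoforms of p63.

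The neuroendocrine factor *INSM1* (chromosome 20 from 20348748 to 20351593, plus strand) was not listed in any library. A count of 0 allows up to 3 counts per library, so the level of this gene was at most 0.128 CPM in each of them.

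*FOXA2* and *SOX2* passed the filter on low counts only through the PC9OR libraries, where they were high. *TP63* would not have passed it without the PC9 libraries, where it was high. In all, 5 of the 9 genes were tested, and 36.4% of all genes tested were called at an adjusted p under 0.05 in either direction. At the stricter threshold of more than 2-fold and an adjusted p under 0.001, edgeR's quasi-likelihood test called 0 of these genes, 4 of which had an unadjusted p under 0.05, as did 50.6% of all genes tested. DESeq2's Wald test called 1 at that threshold, *GATA6*. The same limits called 0 of all 13148 genes with edgeR, and 497 higher and 1238 lower with DESeq2.

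**Figure D2:**
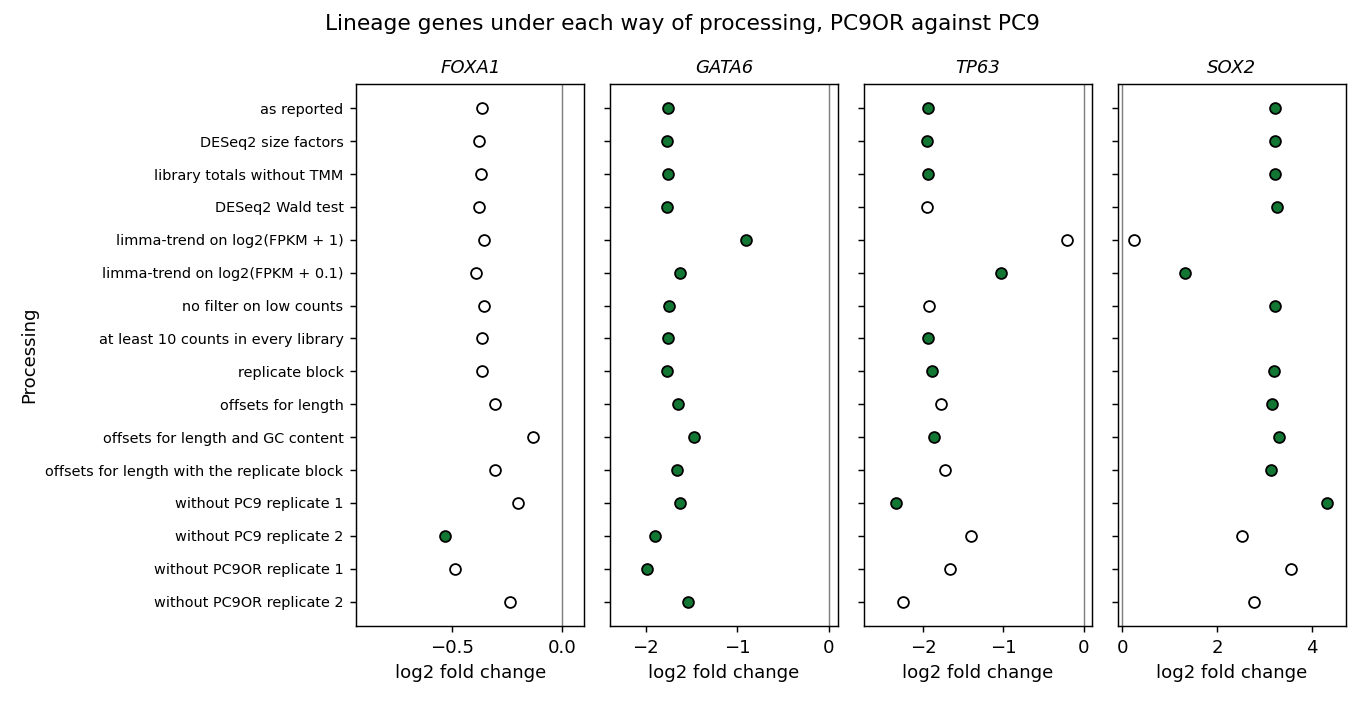
Log2 fold change, PC9OR against PC9, of 4 tested lineage genes (1 panel each, each with its own linear axis) under each way of processing (rows), with filled points for an adjusted p under 0.05. *GATA6* stayed below 0 and filled in every row, whereas *TP63* and *SOX2* kept their direction but lost the fill in several rows. *FOXA2*, at 0 counts in PC9 cells, has no finite fold and is left out.

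The genes most like each tested member over the 4 libraries were found by the Euclidean distance in mean-centred log2 CPM, a description that rests on 4 points. For *SOX2* they were *ARMC3* and *FOXJ1* (distances 0.256 and 0.260), with 15 tested genes within 0.5. For *TP63* they were *CAPNS2* and *GSTO2* (0.274 and 0.306), with 17 within 0.5, and for *FOXA2* they were *LINC00460* and *RDM1* (0.0954 and 0.138), with 27. *GATA6* was nearest to *CLCF1* and *WDFY3* (0.0898 and 0.0923), with 337 within 0.5. *FOXA1* was nearest to *PGAP2* and *FAM83G* (0.0277 and 0.0303), with 3333 within 0.5, so its profile was shared by many genes.

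The other genes of each lineage were taken from written lists, chosen with earlier results of these data known. The 5 lists together held 90 genes beside the members, of which 35 were tested. Of these, 7 were called higher and 15 lower in PC9OR cells, against 15.6% higher and 20.8% lower of all genes tested. Among the called genes, *FOXJ1* passed the filter on low counts only through PC9OR, and *MUC5AC*, *TFF1* and *TFF2* only through PC9. The counts are therefore a description and not support. The median log2 fold change of all tested genes was 0.01. The number called higher fell to 4 without PC9OR replicate 1 and to 3 without PC9OR replicate 2, and was 11 without PC9 replicate 1.

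Of the 19 other alveolar and adenocarcinoma genes, 7 were not listed in any library, namely *SFTPA1*, *SFTPC*, *SFTPD*, *SFTA3*, *SLC34A2*, *CLDN18* and *PDPN*. Of the 8 tested, 2 rose, 2 fell and 4 were not called, against 15.6% higher and 20.8% lower of all genes tested. The median log2 fold change of the 8 was 0.50. *CEBPA*, a factor of alveolar type II cell maturation, rose from 1.34 and 1.64 FPKM in PC9 to 3.66 and 3.85 FPKM in PC9OR, a log2 fold change of 1.36 (edgeR's quasi-likelihood test, adjusted p = 0.0114, and 0.0527 without PC9OR replicate 2). The membrane mucin *MUC1* fell from 3.24 and 2.01 FPKM to 0.34 and 0.42 FPKM, a log2 fold change of -2.65 (adjusted p = 0.0137, edgeR's quasi-likelihood test, 0.0501 without PC9OR replicate 1). *LAMP3*, a lamellar body protein, had a log2 fold change of -1.06 (adjusted p = 0.0492, edgeR's quasi-likelihood test). That call was lost with the replicate number as a block, at an adjusted p of 0.0620 in the same test. It was also lost without PC9 replicate 1 (0.0779) and without PC9OR replicate 1 (0.255) or 2 (0.201). The lipid transporter of lamellar bodies *ABCA3* did not pass (log2 fold change 1.97, adjusted p = 0.0649), with 0.05 and 0.02 FPKM in PC9 and 0.16 and 0.10 FPKM in PC9OR. It passed edgeR's quasi-likelihood test with offsets for length (2.36, adjusted p = 0.0320) and with the replicate block (0.0416). Without PC9 replicate 1 its log2 fold change was 2.81. *ABCA3* passed the filter on low counts only through PC9OR, where it was high, so these calls add no support beyond the counts. The highest levels of the list were those of *CAV1*, a marker of type I cells, and the phospholipid enzyme *LPCAT1*. *CAV1* rose from 67.43 and 66.21 FPKM to 116.97 and 109.21 FPKM, a log2 fold change of 0.80, and its call was lost without PC9OR replicate 1 (adjusted p = 0.0885) or 2 (0.0677, edgeR's quasi-likelihood test). *LPCAT1* did not pass (log2 fold change 0.44, adjusted p = 0.0552), with 39.51 and 32.35 FPKM against 45.81 and 49.36 FPKM. It passed edgeR's quasi-likelihood test with offsets for length (0.57, adjusted p = 0.0139), with the replicate block (0.0490) and without PC9 replicate 1 (0.00818) or 2 (0.0318), and DESeq2's Wald test (0.0263).

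Of the 15 airway genes, 8 were tested, and the median log2 fold change was -0.96. Of these, 1 rose and 5 fell, against 15.6% and 20.8% of all genes tested. The secretory markers *SCGB1A1*, *SCGB3A1*, *SCGB3A2*, *BPIFA1* and *CYP2F1* were not listed, nor was *FOXA3*. The gel-forming mucin *MUC5B* had 705.77 and 185.63 expected counts in PC9 and 16.69 and 16.35 in PC9OR, a log2 fold change of -5.13 (adjusted p = 0.0145, edgeR's quasi-likelihood test). The PC9 replicates were far apart, and with PC9 replicate 1 left out the log2 fold change was -3.64 (adjusted p = 0.00314, edgeR's quasi-likelihood test). On the log2(FPKM + 1) scale it was -0.70 and not called by limma (adjusted p = 0.103). *MUC5AC*, the other gel-forming mucin of the list, had 44 and 48 expected counts in PC9 and 0 and 4 in PC9OR, a ratio of 0.0355 with an exact 95% interval for counting error from 0.00947 to 0.0940. The goblet cell regulators and products *SPDEF* and *AGR2*, the highest of the list, fell by 0.90 and 0.99 on the log2 scale. Without PC9OR replicate 2 both calls were lost (adjusted p = 0.0976 and 0.0710, edgeR's quasi-likelihood test), and that of *AGR2* also without PC9OR replicate 1 (0.0628). The cilia factor *RFX3* fell by 1.89 (adjusted p = 0.00830, edgeR's quasi-likelihood test). *FOXJ1*, the regulator of motile cilia, had 2 and 0 expected counts in PC9 and 15 and 24 in PC9OR, a ratio of 15.9 with an exact 95% interval for counting error from 4.12 to 136. Its call in edgeR (adjusted p = 0.0433) was lost with DESeq2's Wald test (0.0670), on log2(FPKM + 1) with limma (0.0586), with no filter on low counts (0.0712) and without PC9 replicate 2 (0.0633) or PC9OR replicate 1 (0.103) or 2 (0.195). *FOXJ1* passed the filter on low counts only through PC9OR, and *MUC5AC* only through PC9.

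The gastrointestinal and hepatic list was included because lung adenocarcinomas without *NKX2-1* are known to take up gut-like expression. The gut and pancreatic regulators *CDX1*, *CDX2*, *PDX1* and *GATA4* were not listed, and *HNF4A* had 2 expected counts in each PC9 library and was not listed in PC9OR. Of the 3 tested genes, 2 fell and 1 was not called, against 20.8% of all genes tested called lower. Those that fell, *TFF1* and *TFF2*, passed the filter on low counts only through PC9, where they were high, so their calls add no support beyond the counts. *CTSE* was the one not called (log2 fold change 0.97, adjusted p = 0.0738), with 0.41 and 0.40 FPKM in PC9 and 0.79 and 0.84 FPKM in PC9OR. It was called on log2(FPKM + 1) with limma (adjusted p = 0.0251) and with a minimum of 10 counts in every library (0.0405, edgeR's quasi-likelihood test). The trefoil peptides *TFF1* and *TFF2*, secreted with gastric mucins, had 112 and 128 pooled counts in PC9 and 1 each in PC9OR. The ratios were 0.00729 with an exact 95% interval for counting error from 0.000183 to 0.0415 for *TFF1*, and 0.00638 with one from 0.000160 to 0.0362 for *TFF2*. The levels in PC9 cells were 3.32 and 4.86 FPKM for *TFF1* and 2.08 and 3.68 FPKM for *TFF2*, and both were called (adjusted p = 0.00813 and 0.00846, edgeR's quasi-likelihood test). *VIL1*, the microvillus protein villin, showed the reverse, with 0 counts in PC9 and 13 and 10 in PC9OR, and it was too low to be tested. Against the floor of 3 counts over both PC9 libraries it was 6.26-fold higher, with the PC9OR counts taken as exact.

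**Figure D3:**
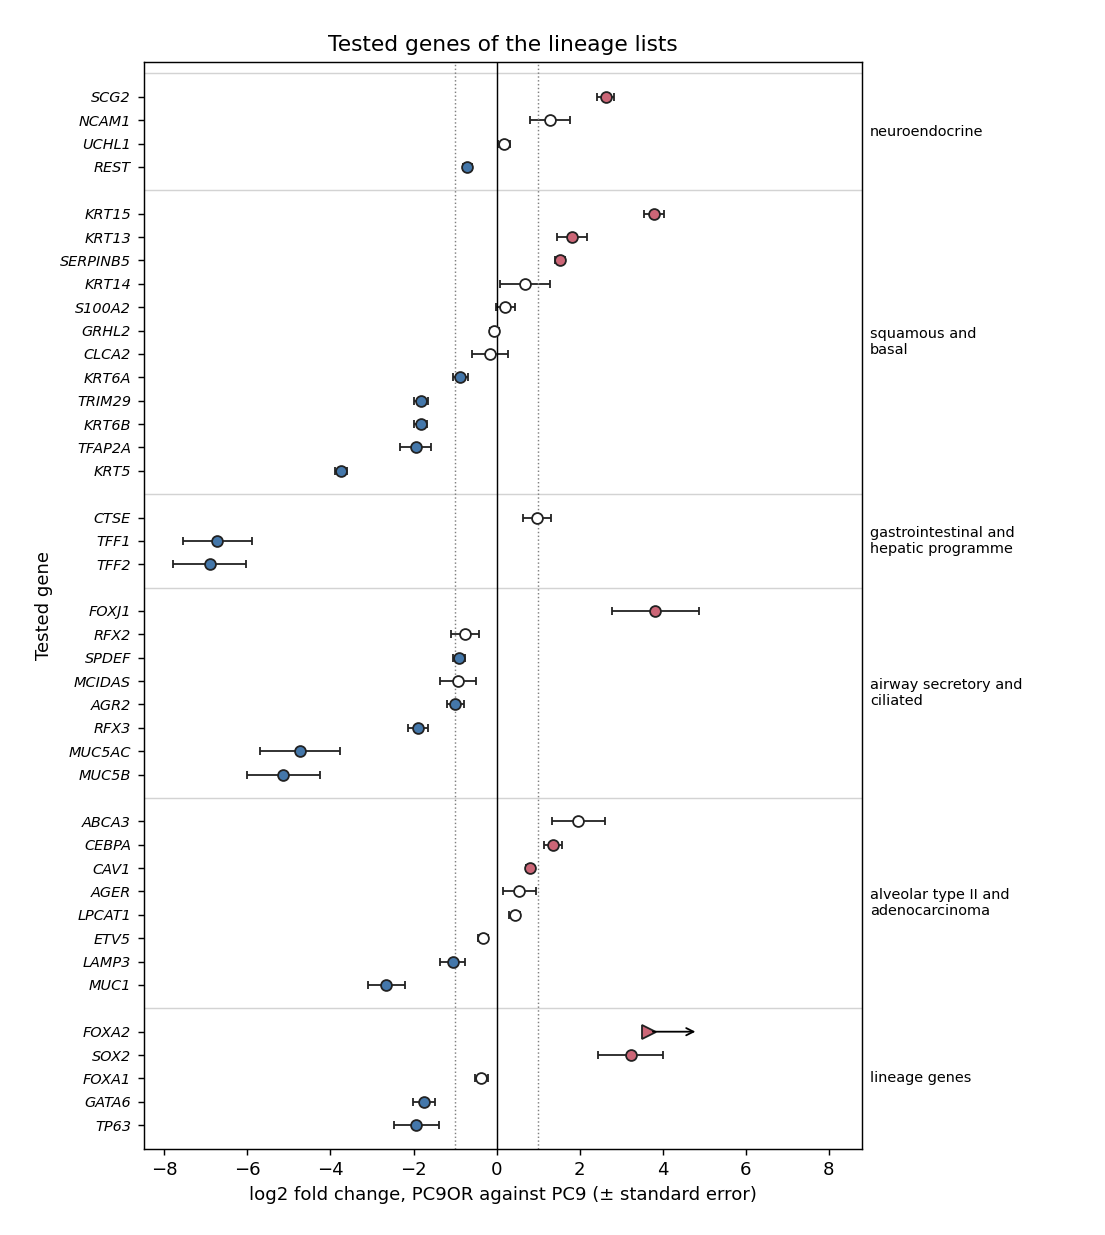
Log2 fold change, PC9OR against PC9, with its standard error for every tested gene of the lineage lists, grouped by list. Filled points had an adjusted p under 0.05 (red higher, blue lower), dotted lines mark 2-fold, and the arrow of *FOXA2* starts at its lower bound of 3.68. *TFF1*, *TFF2*, *MUC5B* and *MUC5AC* lay furthest to the left, and the squamous genes lay on both sides.

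The squamous and basal genes went both ways. Of the 18 beside *SOX2* and *TP63*, 12 were tested, with a median log2 fold change of -0.11. Of these, 3 rose, 5 fell and 4 were not called, against 15.6% higher and 20.8% lower of all genes tested. *KRT5*, the basal keratin that p63 activates, fell from 16.19 and 14.07 FPKM to 1.14 and 1.06 FPKM, a log2 fold change of -3.75 (adjusted p = 0.00190, edgeR's quasi-likelihood test). *TRIM29*, *KRT6B* and the factor *TFAP2A* also fell, with log2 fold changes of -1.82, -1.82 and -1.94. *KRT6A* and *KRT6B* are close copies, so reads may have been divided between them by estimation. *KRT6A* fell by 0.88, a call lost without PC9OR replicate 1 (adjusted p = 0.166) or 2 (0.138, edgeR's quasi-likelihood test). *KRT15* rose from 1.63 and 1.07 FPKM to 17.14 and 19.59 FPKM, a log2 fold change of 3.80 (adjusted p = 0.00351, edgeR's quasi-likelihood test). *KRT13* and the serpin *SERPINB5* rose by 1.82 and 1.53 on the log2 scale, and the call of *KRT13* was lost without PC9OR replicate 1 (adjusted p = 0.151) or 2 (0.126, edgeR's quasi-likelihood test). *SERPINB5*, at 63.00 and 57.53 FPKM in PC9OR, and the epithelial factor *GRHL2*, at between 24.50 and 28.60 FPKM in the 4 libraries, had the highest mean levels of the list. *GRHL2* was not called (log2 fold change -0.05), but with offsets for length and GC content its value was 0.35 and called (adjusted p = 0.0198, edgeR's quasi-likelihood test). The cadherins of squamous desmosomes were near the floor, with at most 7.88 expected counts for *DSG3* and 15.01 for *DSC3* in any library, and *PKP1* had at most 3.

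Few of the neuroendocrine genes beside *INSM1* were expressed by the rule of 1 FPKM, 2 in PC9 cells and 3 in PC9OR cells. Of the 19 beside *INSM1*, 7 were not listed, among them *NEUROD1*, *CHGA* and *GRP*, and *CHGB* had 1 expected count in a single PC9 library. Of the 4 tested, 1 rose, 1 fell and 2 were not called, against 15.6% higher and 20.8% lower of all genes tested. The median log2 fold change of the 4, which include the repressor *REST* as the one that fell, was 0.73. *SCG2*, a granin of secretory granules, rose from 0.70 and 0.61 FPKM to 3.83 and 4.05 FPKM, a log2 fold change of 2.63 (adjusted p = 0.00471, edgeR's quasi-likelihood test). *REST*, which represses neuronal genes in other cells, fell by 0.71 on the log2 scale (adjusted p = 0.0117, edgeR's quasi-likelihood test). With offsets for transcript length its log2 fold change was -0.28 and not called (adjusted p = 0.0976), and the call was also lost without PC9OR replicate 1 (0.135) or 2 (0.130, edgeR's quasi-likelihood test). *NCAM1* (CD56) did not pass (log2 fold change 1.28, adjusted p = 0.0925), with 0.54 and 0.22 FPKM in PC9 and 0.68 and 1.08 FPKM in PC9OR. It passed edgeR's quasi-likelihood test with offsets for length (adjusted p = 0.0343), with offsets for length and GC content (1.76, 0.0236), with the replicate block (0.0412) and without PC9 replicate 1 (0.0190), and DESeq2's Wald test (0.0447). The deubiquitinase *UCHL1* had the highest level of the list, between 465 and 588 FPKM in the 4 libraries, and did not pass, with a log2 fold change of 0.17 (standard error 0.146). Its direction turned with offsets for length (-0.22), and without PC9 replicate 2 it was called higher (0.34, adjusted p = 0.00660, edgeR's quasi-likelihood test).

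*NKX2-1* and *FOXA1* lie 1068402 bases apart on chromosome 14, so the genes around them were described as well. Of the 22 other genes of this list, 17 were tested, 0 were called higher and 2 lower (*NFKBIA* and *PNN*, by 0.94 and 0.89 on the log2 scale), all by edgeR's quasi-likelihood test. Among all genes tested, 15.6% were called higher and 20.8% lower. The median log2 fold change of the 17 genes was 0.26. Unadjusted, p was under 0.05 for 3 genes higher in PC9OR (*MBIP*, *SRP54* and *GEMIN2*) and for the same 2 lower, against 50.6% of all genes tested in either direction. *MBIP*, the nearest tested gene to *NKX2-1* on its left, had 2.82 and 2.59 FPKM in PC9 and 3.83 and 3.85 FPKM in PC9OR. *PAX9*, the nearest tested gene on its right, had 0.53 and 0.61 FPKM in PC9 and 0.45 and 0.42 FPKM in PC9OR. *NKX2-8*, between them, was near the floor with 2, 4, 6 and 7 expected counts. Genes on both sides of *NKX2-1* were therefore detected in PC9 libraries that did not list it.

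**Figure D4:**
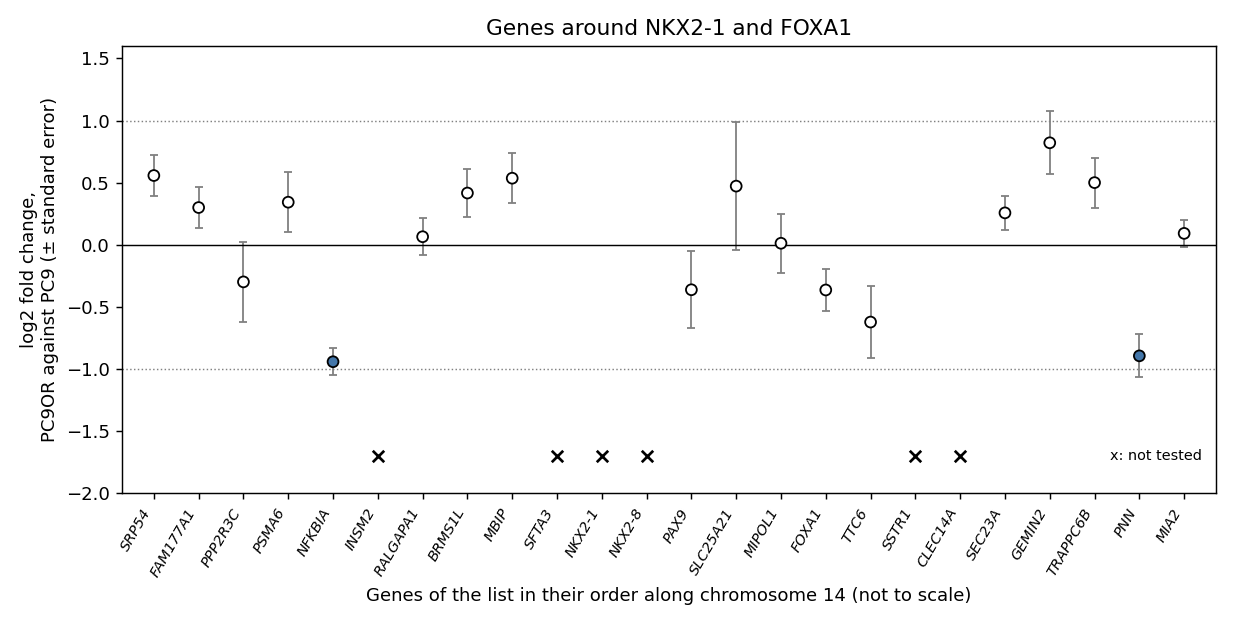
Log2 fold change, PC9OR against PC9, with its standard error for the genes of the written list around *NKX2-1* and *FOXA1*, in their order along chromosome 14. Filled points had an adjusted p under 0.05, dotted lines mark 2-fold and crosses mark genes too low to be tested. All tested genes lay within 2-fold, and *NFKBIA* and *PNN* were the ones called.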

How the data were processed

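RNA libraries of PC9 and PC9OR cells were made with a stranded kit. The submitters' processing notes name Bowtie2 2.2.5, RSEM 1.2.12 and GRCh37, without their roles, and the study's methods name SOAP for read filtering. The authors deposited, for each listed gene of each library, an expected count (an estimated count, not normalized), an FPKM value per gene, and the length of its transcripts, used here for offsets and checks of length. Symbols came from RefSeq (99.7% of genes matched) and positions from GENCODE lifted to GRCh37.

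After rounding, the expected counts were fitted by edgeR 4.0.16 under R 4.3.3 (TMM, filterByExpr, glmQLFTest), with Benjamini-Hochberg adjustment over 13148 genes, called at an adjusted p under 0.05. DEGseq, which the study names, was not available. Nothing states that the cultures were separate beyond the label biological replicate, so p-values measure the spread between these libraries. With 2 libraries a group, an exact two-sided permutation test cannot go below 0.333 and was not used. Depth limited detection to 3 counts per library (0.0936 to 0.128 CPM). All members were named, and of other lists the genes called at more than 2-fold (up to 6 a direction), the 2 with the highest mean FPKM and a few more whose values were seen first. Members and lists were chosen with earlier results of these data known. Alternatives used DESeq2 1.42.0, limma 3.58.1 on log2(FPKM + 1) and log2(FPKM + 0.1), and length and GC offsets fitted with mgcv 1.9.3. The tests were checked on simulated libraries. Some genes of the lists are not reported here by name.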

Additional observations from a re-analysis of the deposited data

How the results depend on the processing

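The directions of the 5 tested lineage genes did not change under any alternative. At more than 2-fold and an adjusted p under 0.001, edgeR called none of them, with the same fitted log2 fold changes of 7.42 for *FOXA2* (a value set by the prior count, since PC9 cells had no counts), -1.75 for *GATA6*, 3.23 for *SOX2* and -1.94 for *TP63*. The counts of calls there were 0 higher and 0 lower for the lineage genes, for the 90 other lineage genes and for all genes. More than 2-fold with an adjusted p under 0.05 left 806 higher and 1523 lower of all genes. *SOX2* lost its call on log2(FPKM + 1), at 0.24, where 1 lineage gene was called higher and 1 lower. *TP63* lost its call with DESeq2's Wald test (-1.95), on log2(FPKM + 1) (-0.21), with no filter on low counts (-1.93), with offsets for length (-1.78) and with these offsets and the replicate block (-1.72), which left 1 lineage gene called lower each time. A minimum of 10 counts in every library removed *FOXA2* and *SOX2*, so 0 were called higher. Offsets for length and GC content called 11 of the 90 other genes higher, against 7.

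Leaving out each library in turn gave log2 fold changes from -0.53 to -0.20 for *FOXA1*, from 2.52 to 4.31 for *SOX2* and from -2.34 to -1.40 for *TP63*. Between 1 and 2 lineage genes were then called higher and between 1 and 2 lower, between 3 and 11 of the 90 other genes higher, and between 525 and 3932 of all genes higher and between 1177 and 3929 lower. Over all genes the lowest counts came without PC9OR replicate 1 and the highest without PC9 replicate 2. A lone library was assumed to vary like the other line's. At a limit of 5 FPKM, 1 lineage gene was expressed in PC9. In PC9OR 4 were expressed at 0.1 FPKM and 5 at a minimum of 10 counts. Counting 1 FPKM in at least 1 library, an alternative chosen after seeing the data, changed neither line. Where a call was lost, the cause was not tested, except that the minimum of 10 counts removed genes by construction.

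The labels number the replicates of both lines, but nothing ties equal numbers to a shared batch, and the deviations of same-numbered libraries had a correlation of 0.0553 over 13148 genes. A fit that took the replicate number as a block gave log2 fold changes of -0.36 for *FOXA1*, 7.43 (fitted) for *FOXA2*, -1.76 for *GATA6*, 3.21 for *SOX2* and -1.89 for *TP63*, and called 2593 of all genes higher and 2946 lower. The block changed no call of a tested lineage gene, and of the other genes named it ended that of *LAMP3* and gave one to *ABCA3*, *LPCAT1* and *NCAM1*. Depth limits *NKX2-1*, *NAPSA*, *SOX2* and *FOXA2*, each with few counts in every library, and *SFTPB* and *INSM1* were at 0.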

Other observations

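The relatives of the lineage factors were described from another written list of the forkhead, GATA, SOX, NKX2, INSM and p53 families. Of its 15 genes beside the members, 5 were tested, with a median log2 fold change of -0.45. Of these, 3 fell and 2 were not called (edgeR's quasi-likelihood test, adjusted p under 0.05), against 20.8% of all genes tested called lower. *SOX9*, a factor of the distal lung progenitors, fell from 16.84 and 11.69 FPKM in PC9 to 3.95 and 3.21 FPKM in PC9OR, a log2 fold change of -1.96 (standard error 0.214) that passed edgeR's quasi-likelihood test (adjusted p = 0.00666). It had 16.7 times the level of *SOX2* in PC9OR cells on the FPKM scale. *GATA3*, the relative of *GATA6* that marks luminal and urothelial epithelia, fell from 3.88 and 2.27 FPKM to 0.51 and 0.51 FPKM, a log2 fold change of -2.56 (standard error 0.326) that passed the same test (adjusted p = 0.00851). Both were called in all 15 fits with other processing or with a library left out. *SOX4* fell by 0.45 on the log2 scale (adjusted p = 0.0445) and was called in 7 of the 15, losing its call without PC9OR replicate 1 or 2 and with offsets for length. *GATA2* did not pass, with 1.14 and 0.75 FPKM in PC9 and 0.84 and 0.77 FPKM in PC9OR, and *NKX2-5* did not pass either. *GATA1*, *GATA4*, *FOXA3*, *SOX1*, *SOX3* and *NKX2-4* were not listed in any library, and *TP73* and *GATA5* had 1 expected count in a single PC9 library.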
